A study of Mus musculus with 4 samples.

Results

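The collagen chain genes are the genes whose symbol in the array's annotation has the form Col, a type number, the letter a and a chain number. Each was represented by the probe set with a single gene symbol that had the highest mean signal over the 4 arrays, which gave 42 collagen genes among 18193 genes. They comprise 11 fibrillar, 6 basement membrane, 3 network and 22 other collagen genes. The cells were C2C12, a mouse myoblast line whose cells fuse into myotubes when serum is lowered. TC cells (1 array) were treated with the LSD1 inhibitor tranylcypromine and S2101 cells (1 array) with the LSD1 inhibitor S2101, and control cells (2 arrays) received vehicle. All cells were grown with 25 mM glucose and 10% fetal bovine serum, then moved to 2% horse serum to differentiate, and total RNA was taken 48 h after induction with inhibitor or vehicle. The labels give no dose for either compound, and they do not state that each array had a culture of its own. The p-values thus reflect the spread among these arrays, part or all of which may be technical, and spread borrowed from all genes. Where TC and S2101 are pooled, the spread also includes any difference between the 2 compounds. That fit has 2 residual degrees of freedom, against 8.08 borrowed from all genes.

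Collagens are trimeric matrix proteins whose chains wind into a triple helix of glycine-led repeats. Fibrillar collagens assemble into the banded fibres of connective tissue, type IV collagen forms the sheet of basement membranes, type VIII forms hexagonal networks and type VI forms beaded filaments. Around muscle fibres, type IV collagen lies in the basement membrane with laminin, type VI collagen adjoins it, and types I, III and V make up much of the surrounding connective tissue.

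The RefSeq promoter table (GRCm38.p6) held windows for 33 of the 42 genes and 13 of the 17 that were bright enough to test. The 250 bases before the start of the chains of types VI and VIII are given here, because all 3 common type VI chains fell and both type VIII chains were lower. Sequences run 5′ to 3′ along the gene, and capitals mark matches on either strand to the TATA box letters TATAAA, to the CCAAT box, to the GC box letters GGGCGG or to the TEAD motif GGAATG.
Col6a1, chr10:76726045-76726294, minus strand: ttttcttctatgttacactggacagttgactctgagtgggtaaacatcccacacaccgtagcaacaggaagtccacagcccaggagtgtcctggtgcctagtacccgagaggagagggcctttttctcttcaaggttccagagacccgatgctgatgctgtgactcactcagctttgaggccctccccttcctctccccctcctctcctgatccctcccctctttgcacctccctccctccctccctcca
Col6a2, chr10:76623631-76623880, minus strand: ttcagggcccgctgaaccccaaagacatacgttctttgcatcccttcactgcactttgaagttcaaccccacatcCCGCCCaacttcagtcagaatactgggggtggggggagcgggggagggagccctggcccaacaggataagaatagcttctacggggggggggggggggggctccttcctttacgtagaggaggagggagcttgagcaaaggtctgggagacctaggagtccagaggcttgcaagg
Col6a3, chr1:90843972-90844221, minus strand: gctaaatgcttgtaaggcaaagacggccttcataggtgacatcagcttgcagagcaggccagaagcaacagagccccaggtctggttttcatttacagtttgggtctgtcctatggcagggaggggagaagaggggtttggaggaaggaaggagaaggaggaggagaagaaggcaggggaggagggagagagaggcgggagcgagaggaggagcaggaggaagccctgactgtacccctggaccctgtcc
Col8a1, chr16:57754738-57754987, minus strand: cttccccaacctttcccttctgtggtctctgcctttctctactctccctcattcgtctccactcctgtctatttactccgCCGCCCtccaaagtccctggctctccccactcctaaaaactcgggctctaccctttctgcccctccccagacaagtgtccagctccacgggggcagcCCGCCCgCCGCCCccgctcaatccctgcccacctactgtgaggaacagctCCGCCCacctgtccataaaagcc
Col8a2, chr4:126286544-126286793, plus strand: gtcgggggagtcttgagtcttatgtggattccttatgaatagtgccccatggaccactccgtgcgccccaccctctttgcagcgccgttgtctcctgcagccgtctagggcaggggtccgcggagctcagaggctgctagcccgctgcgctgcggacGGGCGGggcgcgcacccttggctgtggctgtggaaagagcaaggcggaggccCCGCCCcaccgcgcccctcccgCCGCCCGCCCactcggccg
The Col6a1 and Col6a3 windows held none of these letters, the Col6a2 window shown held 1 copy of GGGCGG, and Col8a1 and Col8a2 held 4 copies each. Col6a2 has 2 windows in the table. The one shown lies before its start farthest upstream, and the other held 3 copies of GGGCGG and 1 of GGAATG. The last run of capitals in Col8a2 is a pair of overlapping copies. GGGCGG was present in 32.7% of the 32851 promoter windows in the table. Of the 10 windows of 9 collagen genes that fell, 7 held GGGCGG, 4 held CCAAT (33.8% of all windows), 1 held GGAATG (12.6% of all windows) and 0 held TATAAA (12.4% of all windows). The collagen genes as a whole had GGGCGG in 10 and CCAAT in 7 of the 15 windows of tested collagen genes, and in 21 and 13 of all 36 collagen windows. The neighbours Col4a1 (minus strand) and Col4a2 (plus strand) run in opposite directions on chromosome 8, from annotated starts at 11312826 and 11312805, 21 bases apart. The genes thus overlap at their annotated starts, and the bases before each start lie past the start of the other gene. Each window held 1 CCAAT match, shown with its surroundings.
Col4a1, chr8:11312954-11312983, minus strand: tgcttgcccgggATTGGcgagccaaggggc
Col4a2, chr8:11312761-11312790, plus strand: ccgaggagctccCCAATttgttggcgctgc
These matches describe letters in a window and are not binding sites shown by these data.

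Most collagen genes with a bright signal had lower signals with the LSD1 inhibitors. Of 17 tested, 12 fell, 0 rose and 5 did not pass (limma, adjusted p below 0.05 over 9097 genes). Of all 9097 genes tested, 3.74% fell and 4.28% rose. The median log2 difference of the 17 genes was -0.63, against 0.01 for all genes tested. Differences are on the scale log2(signal + 50), with TC and S2101 pooled as the inhibitor arrays (n = 2) and set against the controls (n = 2). In 15 of the 17 genes both inhibitor arrays lay below both controls, which held for 23.4% of all genes tested. RNA came from whole cultures, so fewer cells of a type and less RNA per cell cannot be told apart.

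**Figure D1:**
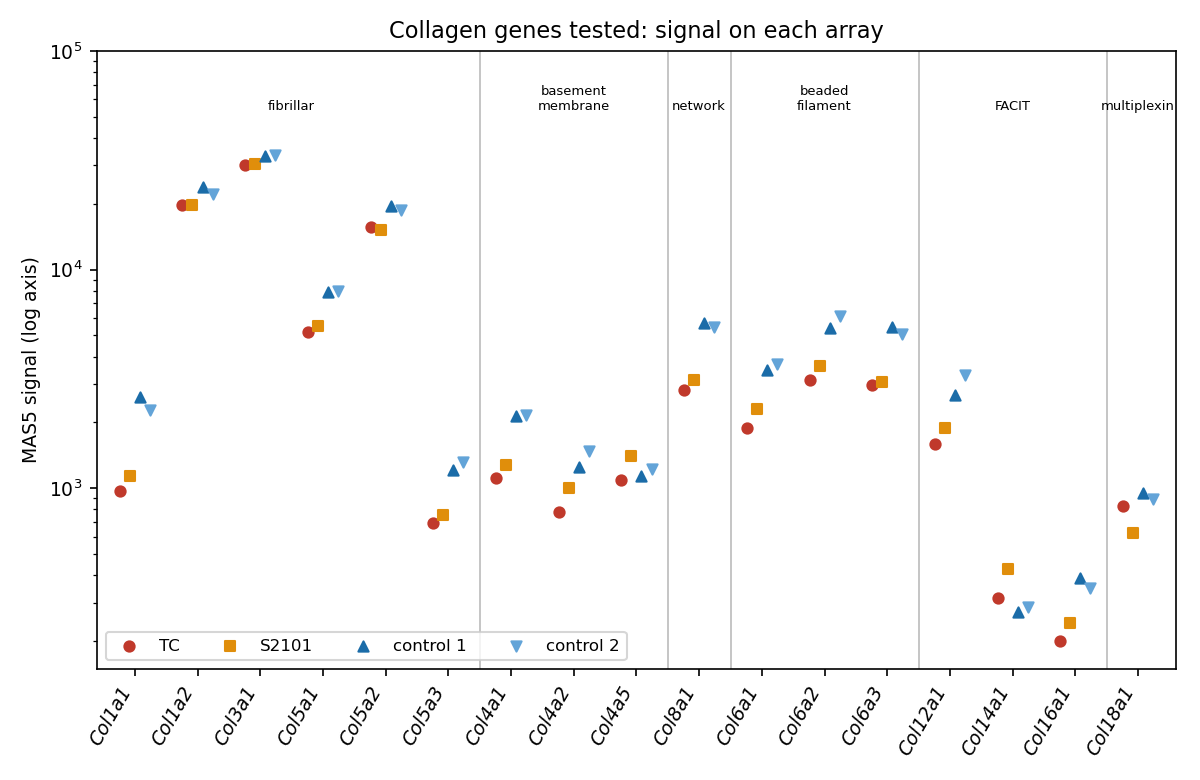
MAS5 signal (log axis) of the 17 tested collagen genes on the TC, S2101 and 2 control arrays, grouped by class; signals are to be compared between arrays within a gene, not between genes. Both inhibitor arrays sit below both controls in all genes shown except Col4a5, where the groups overlap, and Col14a1, where they sit above.

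Type I collagen, the main fibre of most connective tissue, is built from the Col1a1 and Col1a2 chains. Col1a1 had signals of 971 with TC and 1132 with S2101, against 2624 and 2287 on the controls. It fell by 1.19 log2 units (limma adjusted p = 0.000133; SE 0.10), the largest difference of the 17 by brightest probe set. Its other probe set gave -0.57, nearer to 0 than the -0.93 of the second Col8a1 probe set. The inhibitor signals were 39.5% (TC) and 46.1% (S2101) of the control mean, and the groups were far apart relative to the control difference of 0.19 on the log2 scale. Col1a2 had signals of 19702 with TC and 19705 with S2101, against 23742 and 22138 on the controls. Its log2 difference of -0.22 ± 0.06 (SE) did not pass (adjusted p = 0.0647, limma), although both inhibitor arrays lay below both controls. Col3a1, the chain of type III collagen, which forms fine fibrils with type I, had 30107 with TC and 30465 with S2101, against 33191 and 33332 on the controls. Its log2 difference of -0.14 ± 0.06 (SE) did not pass either (adjusted p = 0.204, limma).

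Type V collagen starts the assembly of type I fibrils and limits their width, and all 3 of its chains fell. Col5a3 had 691 with TC and 753 with S2101, against 1218 and 1322 on the controls, a difference of -0.77 ± 0.10 in log2 units (SE; limma adjusted p = 0.00118). Col5a1 had 5165 and 5499, against 7907 and 7967 on the controls. It fell by 0.57 log2 units (limma adjusted p = 0.000892; SE 0.07), and the inhibitor arrays stood at 65.1% (TC) and 69.3% (S2101) of the control mean. Col5a2 had 15580.4 with TC and 15192 with S2101, against 19488 and 18621 on the controls. It fell least of the 3, by 0.31 log2 units (limma adjusted p = 0.0137; SE 0.06), and its call ended without control 1 (adjusted p = 0.121), without an intensity trend in the variance (0.105) or without the filter on dim genes (0.112). The 6 fibrillar genes tested had a median log2 difference of -0.44, with 4 lower and 2 not passing. The other 5, Col2a1, Col11a1, Col11a2, Col24a1 and Col27a1, of which Col2a1 is the cartilage fibre chain, were under the filter, with signals between 1.37 and 156.

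The basement membrane class was split. Col4a1 and Col4a2 form the common type IV trimer. Col4a1 had 1117 with TC and 1281 with S2101, against 2139.9 and 2169 on the controls. It fell by 0.82 log2 units (limma adjusted p = 0.000594; SE 0.09), with control signals 0.02 apart on the log2 scale. Col4a2, its neighbour and partner, had 783 with TC and 1003 with S2101, against 1254 and 1483 on the controls. It fell by 0.59 log2 units (limma adjusted p = 0.0175; SE 0.13), and this call ended without the TC array (-0.43, adjusted p = 0.070), without an intensity trend (0.0724) or without the filter (0.118). Col4a5, a chain of the rarer type IV trimers, had 1088 with TC and 1404 with S2101, against 1139.5 and 1219 on the controls. The TC signal was the lowest and the S2101 signal the highest of the 4, and the log2 difference of 0.07 ± 0.12 (SE) did not pass (adjusted p = 0.802, limma). Col4a3, Col4a4 and Col4a6, partners of Col4a5 in those trimers, were under the filter, with signals between 1.64 and 57.3.

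Of the network class, Col8a1 alone was tested. Type VIII collagen is known from the sheet under the corneal endothelium and from vessel walls. Col8a1 had 2815 with TC and 3129 with S2101, against 5719 and 5444 on the controls. It fell by 0.90 log2 units (limma adjusted p = 0.000133; SE 0.08), to 50.4% (TC) and 56.1% (S2101) of the control mean. Its partner chain Col8a2 was dimmer and under the filter, with 12.2 with TC and 16.3 with S2101, against 164 and 137 on the controls. In the fit without a filter its log2 difference was -1.64 ± 0.20 (SE; adjusted p = 0.0271, limma), and it was the only collagen gene under the filter to pass there. The inhibitor signals of Col8a2 lie below the offset of 50, so the size of this difference depends on the offset. Col10a1, the network collagen of growth plate cartilage, had signals between 3.80 and 24.7, with overlapping groups.

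Type VI collagen, whose 3 common chains can be mutated in human congenital muscular dystrophies, had nearly equal differences in its chains by their brightest probe sets. The second Col6a2 probe set gave -0.54. Col6a1 had 1887 with TC and 2293 with S2101, against 3488 and 3702 on the controls, a difference of -0.77 ± 0.10 in log2 units (SE; limma adjusted p = 0.00116). Col6a2 had 3124 and 3623, against 5426 and 6106 on the controls, a difference of -0.77 ± 0.09 in log2 units (SE; 0.000874). Col6a3 had 2978 and 3064, against 5474 and 5083 on the controls, a difference of -0.79 ± 0.07 in log2 units (SE; 0.000215). In all 3 chains the TC array was the lowest of the 4. Col6a1 and Col6a2 are neighbours on chromosome 10, while Col6a3 lies on chromosome 1. Col6a4 and Col6a5 were under the filter, with signals of at most 37.6.

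**Figure D2:**
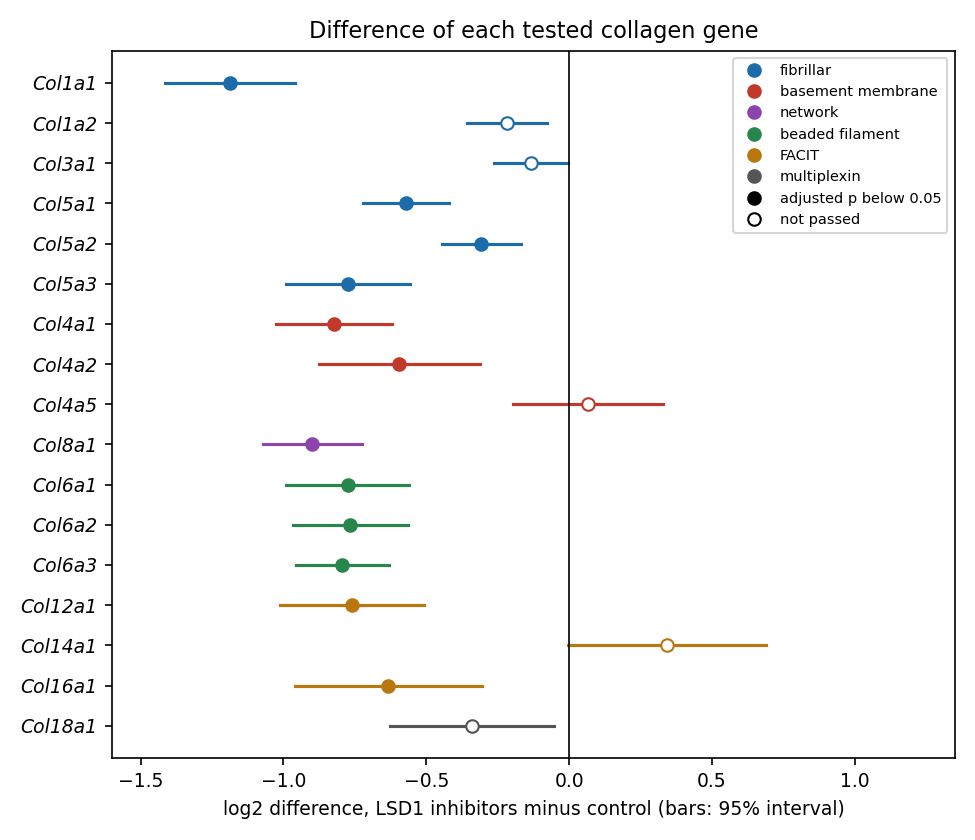
Log2 difference (inhibitor arrays minus controls, n = 2 each) of the 17 tested collagen genes with 95% intervals, coloured by class; filled points passed at an adjusted p below 0.05 (limma). The 12 filled points lie between -1.19 (Col1a1) and -0.31 (Col5a2), and Col14a1 and Col4a5 are the 2 points above 0.

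The fibril-associated collagens (FACIT), which sit on the surface of fibrils, differed among themselves. Col12a1 had 1589.95 with TC and 1883 with S2101, against 2671 and 3294 on the controls. It fell by 0.76 log2 units (limma adjusted p = 0.00297; SE 0.11). Col16a1 had 199.7 with TC and 242 with S2101, against 389 and 349 on the controls. It fell by 0.63 log2 units (limma adjusted p = 0.0267; SE 0.15), and its call ended without control 1 (adjusted p = 0.125), without the TC array (0.108) or without the filter (0.144). The groups of Col14a1 lay the other way round, with 316 with TC and 429 with S2101, against 273 and 286 on the controls. Its log2 difference of 0.34 ± 0.16 (SE) did not pass (adjusted p = 0.230, limma). Col18a1, a multiplexin of basement membranes whose end fragment is endostatin, had 829.9 with TC and 622 with S2101, against 953 and 895 on the controls, and did not pass (log2 difference -0.34 ± 0.13, SE; adjusted p = 0.150, limma). It passed without the TC array (-0.53, adjusted p = 0.0257, limma).

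Altogether 25 collagen genes were under the filter, a mean signal of 178.8. Both inhibitor arrays lay below both controls in 4 of them (Col2a1, Col7a1, Col8a2, Col19a1). They lay above in 7 (Col4a4, Col6a4, Col6a5, Col9a2, Col9a3, Col23a1, Col26a1) and neither in 14. Among all 18193 genes without a filter, 22.2% lay below and 21.0% above. The anchoring fibril gene Col7a1 had 61.6 with TC and 91.6 with S2101, against 157 and 105 on the controls. Besides Col7a1, Col19a1 and those named in earlier paragraphs, the cartilage genes Col9a1, Col9a2 and Col9a3, the transmembrane collagen genes Col13a1, Col17a1, Col23a1 and Col25a1, and Col15a1, Col20a1, Col22a1 and Col26a1 were in this range. Their signals ran from 2.54 to 124. Detection calls were not used here, so whether these genes were expressed cannot be told from their signals.

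Several collagen genes had more than 1 bright probe set, and the probe sets often differed in size of change. Of 30 bright collagen probe sets tested singly, 19 were lower and 11 did not pass (limma over 14922 probe sets, of which 2.38% were lower). Of the 29 with every array above the filter, 18 were lower and 11 did not pass. In 10 of the 11 genes with several, all bright probe sets had the same sign, the exception being Col18a1 (-0.34 and 0.05). For Col1a2 the probe set used above is brighter than all but 0.468% of probe sets on the array. Its next probe set had 6643 with TC and 7013 with S2101, against 9874 and 10283 on the controls, a difference of -0.56 ± 0.07 in log2 units (SE; limma adjusted p = 0.0034). For Col3a1, whose chosen probe set is exceeded by 0.0732% of probe sets, the next had 7213 and 7856, against 10892 and 10840.1 on the controls. That probe set fell by 0.53 log2 units (limma adjusted p = 0.00494; SE 0.07). Thus both genes that did not pass in the fibrillar class did pass by their second probe set, with differences near that of the second Col5a2 probe set (-0.54).

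For other genes the order was reversed. Col1a1 stood at -1.19 in its brightest probe set and at -0.57 ± 0.14 (SE) in the other, which did not pass by itself (adjusted p = 0.0617, limma). That other probe set had 315 with TC and 421 with S2101, against 565 and 568 on the controls. Col4a1 (-0.82 and -0.32) and Col12a1 (-0.76 and -0.31) likewise differed less in the dimmer probe set, and neither dimmer one passed (adjusted p = 0.314 and 0.318, limma). Col5a1 gave -0.57, -0.74 and -0.33 in order of brightness, and the dimmest of these did not pass (adjusted p = 0.225, limma). Col8a1 gave -0.90 and -0.93 in its 2 brightest probe sets, and both fell. Its next probe set had 128 with TC and 121 with S2101, both under the filter, against 275 and 238 on the controls, so it entered the test through the controls. A choice made after seeing the data was to represent each gene by its second brightest probe set where that was bright enough. Then 12 of 17 collagen genes fell, beside 273 of all 9097 genes. Col1a2 and Col3a1 replaced Col4a1 and Col12a1, and 10 were shared with the 12 above. Only 11 collagen genes had such a second probe set. Among the 10, Col4a2, Col5a3, Col6a1, Col6a3 and Col16a1 kept the same probe set and values, so they say nothing about second probe sets. Col1a1 passed in this fit over genes (adjusted p = 0.0413, limma), unlike in the fit over single probe sets. Whether probe brightness has a part in these sizes was not tested.

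**Figure D3:**
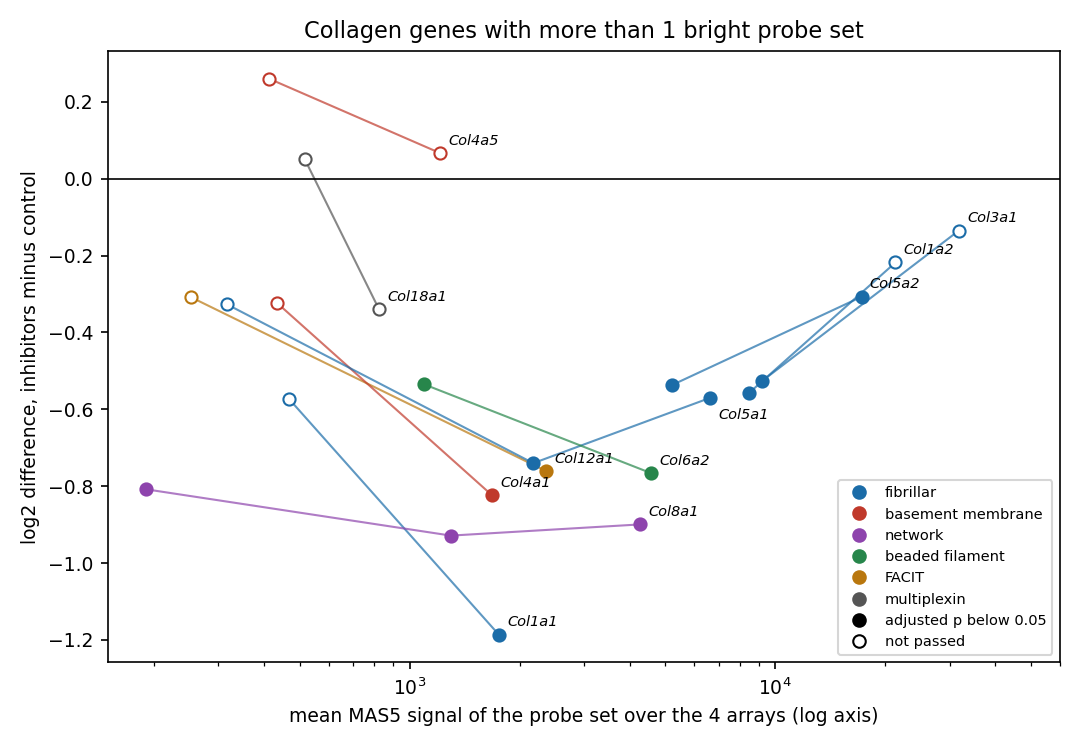
Log2 difference (inhibitor arrays minus controls) against mean signal (log axis) for each bright probe set of the collagen genes that have more than 1, with lines joining probe sets of 1 gene; filled points passed at an adjusted p below 0.05 (limma). The brightest probe sets of Col1a2 (-0.22), Col3a1 (-0.14) and Col5a2 (-0.31) lie nearer to 0 than their next ones (-0.56, -0.53 and -0.54).

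Chains that form a trimer together were compared by the log2 ratio of their signals within each array, which is read only across arrays. The Col1a1 to Col1a2 ratio was -4.27 with TC and -4.06 with S2101, against -3.15 and -3.25 on the controls, a change of -0.97. With the second probe set of each gene the change was -0.01, so the ratio rests on the choice of probe set. The Col6a1 to Col6a2 ratio was -0.71 with TC and -0.65 with S2101, against -0.63 and -0.71 on the controls, and the groups overlapped. Its change was -0.01, and it was -0.24 with the second Col6a2 probe set. The Col6a1 to Col6a3 ratio also overlapped, with -0.65 and -0.41, against -0.64 and -0.45 on the controls. The Col4a1 to Col4a2 ratio was 0.49 with TC and 0.34 with S2101, against 0.75 and 0.53 on the controls. That change of -0.23 was near the control difference of 0.21 and turned to 0.27 with the second Col4a1 probe set. The Col5a1 to Col5a2 ratio was -1.58 with TC and -1.46 with S2101, against -1.30 and -1.22 on the controls, a change of -0.26. With 2 arrays against 2 an exact two-sided permutation test cannot give a p below 0.333, so these ratios were not tested.

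Each compound was also set against the controls by itself, in a fit with 3 groups whose spread comes from the control pair and from all genes, which takes each lone array to be as variable as a control. With TC 12 of 17 collagen genes fell and 5 did not pass, while 3.81% of all genes fell. With S2101 11 fell and 6 did not pass, while 3.33% of all genes fell. The calls rest on the spread borrowed from all genes, since 1 residual degree of freedom comes from the control pair: without an intensity trend 4 passed with TC and 2 with S2101, and without the filter 0 passed with either (limma). These comparisons share the control arrays. No dose is given, so the values are placed side by side. Col1a1 stood at -1.29 ± 0.11 (SE) with TC and at -1.08 ± 0.11 with S2101, and Col8a1 at -0.97 with TC and at -0.82 with S2101. The type VI chains stood at -0.81 to -0.91 with TC and at -0.64 to -0.77 with S2101. Col4a2 (-0.76, adjusted p = 0.00632) and Col16a1 (-0.74, 0.0297) passed with TC, while S2101 gave -0.43 (0.0781) and -0.52 (0.120) in the same limma fit. Col18a1 stood at -0.15 with TC (adjusted p = 0.509, limma) and at -0.53 with S2101 (0.0265), and its second probe set at 0.08 with TC and 0.03 with S2101.

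Tested directly, TC against S2101, 0 of 17 collagen genes passed (limma). Among all 9097 genes 0.033% passed in this 1 pair of compounds. Col4a2, Col4a5, Col6a1 and Col18a1 are given first because they had the lowest p-values of the 17. Their 95% intervals are not adjusted for the number of genes tested. The TC minus S2101 difference was -0.35 for Col4a5 (95% interval -0.62 to -0.09; adjusted p = 0.494, limma) and -0.28 for Col6a1 (-0.49 to -0.06; 0.495). It was 0.39 for Col18a1 (0.08 to 0.69; adjusted p = 0.495, limma) and -0.34 for Col4a2 (-0.66 to -0.02; 0.540). For Col1a1 the interval ran from -0.49 to 0.06 and for Col3a1 from -0.19 to 0.15. The signal with TC was lower than with S2101 in 15 of the 17 genes, of which Col1a2 (19702 with TC, 19705 with S2101) hardly differed, and in 46.0% of all genes tested. With 1 array per compound, a difference between compounds and one between arrays cannot be told apart.

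**Figure D4:**
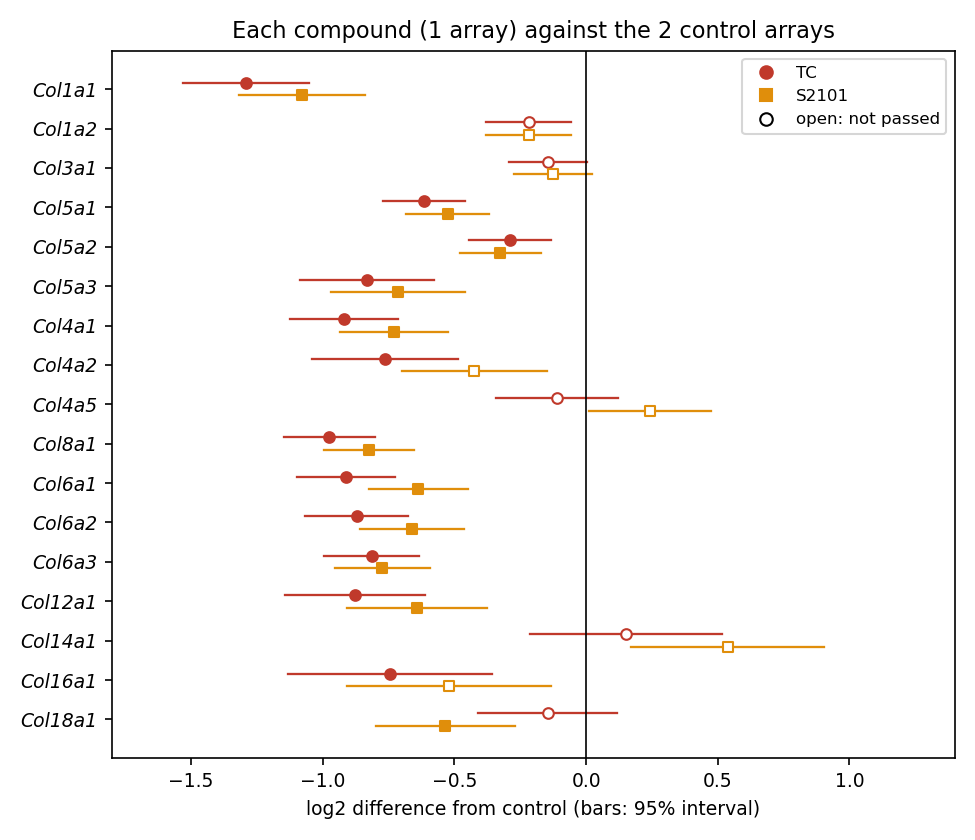
Log2 difference from the 2 control arrays with TC (circles) and with S2101 (squares) for the 17 tested collagen genes, with 95% intervals from the fit with 3 groups; open symbols did not pass. Col1a1 lies farthest from 0 with both compounds (-1.29 with TC, -1.08 with S2101), and Col14a1 lies above 0 with both.

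Procollagen chains are hydroxylated, folded and exported from the endoplasmic reticulum, then trimmed and crosslinked outside the cell. Of 40 genes listed for these steps 28 were tested, and 10 fell, 1 rose and 17 did not pass, with a median log2 difference of -0.26. Of all genes 8.01% passed in either direction. Pcolce2, an enhancer of procollagen trimming, had 1407 with TC and 1224 with S2101, against 2039 and 1974 on the controls, a difference of -0.59 ± 0.09 in log2 units (SE; limma adjusted p = 0.00342). The prolyl isomerase gene Fkbp14 fell by 0.55 on the log2 scale, P4ha1 and P4ha2, the catalytic chains of prolyl 4-hydroxylase, by 0.48 and 0.43, Fkbp9 by 0.41 and Sec24d, a coat protein of export vesicles, by 0.41. The collagen chaperone gene Serpinh1 (HSP47), named after its values were seen, had 11643 with TC and 12100.3 with S2101, against 14144.5 and 15293 on the controls (-0.31 ± 0.07, SE; adjusted p = 0.0196, limma). Tmem38b, a potassium channel of the endoplasmic reticulum, was the gene that rose (0.36 ± 0.09, SE; 0.0423), also named after its values were seen. The lysyl hydroxylase gene Plod2 (-0.30) and the transcription factor Creb3l1 (-0.30) had the largest differences among those that did not pass.

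Of 22 listed partners of type IV collagen in the basement membrane 15 were tested. Of these 4 fell, 11 did not pass and 0 rose (limma), while 3.74% of all genes fell. The median log2 difference of the 15 was -0.18. Peroxidasin, Pxdn, which crosslinks type IV collagen, had 2538 with TC and 2488 with S2101, against 3924 and 4094 on the controls. It fell by 0.66 log2 units (limma adjusted p = 0.000558; SE 0.07), with the groups well apart. Smoc2 fell by 0.62, the fibulin Fbln2 by 0.53 and the nidogen Nid1, which links laminin to type IV collagen, by 0.34. Nid2 (-0.43) and the laminin chain Lama5 (0.32) had the largest differences among those that did not pass. Of 12 collagen receptor genes 6 were tested, and 1, the integrin subunit Itgb1, fell (-0.34 ± 0.07, SE; adjusted p = 0.0141, limma), a call that ended without the filter, without a trend, with averaged or second probe sets and without control 2. The discoidin receptor Ddr1 (-0.18) and Adgrg1 (-0.32) did not pass.

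**Figure D5:**
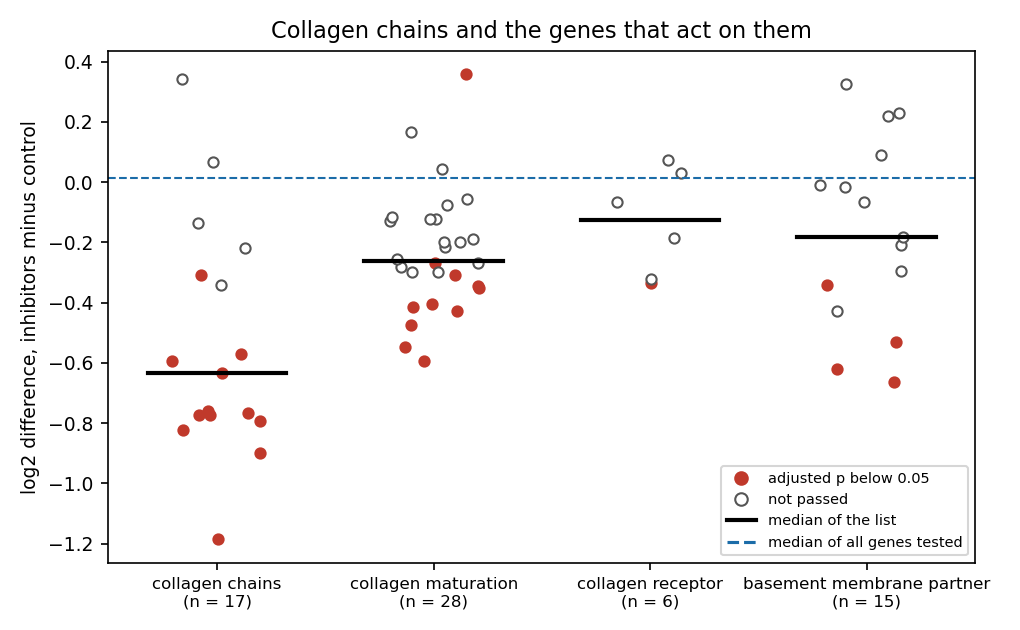
Log2 differences (inhibitor arrays minus controls) of the tested collagen chains and of the listed maturation, receptor and basement membrane partner genes; red points passed at an adjusted p below 0.05 (limma), black lines are list medians and the dashed line is the median of all genes tested (0.01). The medians are -0.63 for the chains, -0.26 for maturation genes, -0.13 for receptors and -0.18 for partners.

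Markers of myotubes (Acta1, Myh3 and Myog among them) were bright on all arrays, and 0 of 8 passed (limma). Ttn came nearest, with a log2 difference of 0.29 (adjusted p = 0.0544, limma). The summed signals of the 8 were 82492 with TC and 74511 with S2101, against 76879 and 76686 on the controls. All 5 measured proliferation markers fell (3.74% of all genes tested fell and 4.28% rose), with sums of 11840 and 10505, against 16444 and 16021 on the controls. Of 6 fibroblast markers 5 were tested and 2, Dcn (-0.23) and Pdgfrb (-0.46), fell. Lum (-0.39), S100a4 (-0.06) and Pdgfra (0.17) did not pass, and Thy1 was under the filter. The sums of the 6 were 51333 with TC and 50043 with S2101, against 58703 and 54969 on the controls. Most of each sum was S100a4, with 32262 with TC and 29609 with S2101, against 34214 and 30521 on the controls. Endothelial, adipocyte, epithelial and osteoblast markers had no tested member, and 1 each of the chondrocyte (Sox9) and leukocyte (Cd14) markers was tested and did not pass. Of 5 myoblast markers all were tested and 1 rose, the muscle cadherin Cdh15 (0.31 ± 0.07, SE; adjusted p = 0.0171, limma). Their sums were 22020 with TC and 21975 with S2101, against 18699 and 20054 on the controls. Myod1 (-0.05), Pax7 (-0.05), Myf5 (0.09) and Des (0.18) did not pass, and Des is also in the myotube list. The part of these markers in the collagen differences was not tested. Kdm1a, which encodes LSD1, had 4990.2 with TC and 4862 with S2101, against 5537 and 5202 on the controls, and did not pass (adjusted p = 0.343, limma). Median signals over all probe sets were between 63.4 and 75.1.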

How the data were processed

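RNA from 4 samples of differentiating C2C12 cells was measured on 1 Affymetrix array each. The deposited intensity values are MAS5 signals per probe set on a linear scale. MAS5 and Affymetrix Expression Console are named in the submitters' processing notes, and further detail is not given in the sources used here. The deposited values averaged 500.0 per array after trimming 2% at each end. Per the labels' protocols, each labelled cRNA started from 250 ng of RNA.

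Of 45101 probe sets, 34945 carried 1 symbol. Each of 18193 genes kept its brightest probe set, and the 9097 with a mean signal of the median gene or more (178.8) entered the tests. All 42 collagen symbols were found in the RefSeq table (GRCm38.p6), which was used for names, neighbours and promoters. Log2(signal + 50) was fitted with limma 3.58.1 in R 4.3.3, using an intensity trend in the prior variance (eBayes) and adjusting by Benjamini-Hochberg over all genes. Pooling TC and S2101 against control left 2 residual degrees of freedom (prior 8.08), and the fit with 3 groups left 1 (prior 8.37). The number of arrays limits the precision.

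On simulated data for 9097 genes, 200 were changed in each of 10 draws. The comparison of inhibitors with control recovered 84.4% of differences of 0.5 and 99.6% of 1, with 5.34% of calls false. That of TC with control recovered 72.0% and 99.1%, with 8.26% false. The simulated noise was normal and independent, with variances taken from the fit itself, and both compounds received the same change. It held no difference between compounds, cultures or probe sets, so these rates need not hold for the real arrays. Alternatives were offsets of 10 and 250, no filter, a filter at the 75th percentile, no trend, averaged probe sets, quantile normalization, each array left out and, chosen after seeing the data, the second brightest probe set. The collagen genes, the lists and the rule for named genes (every tested collagen gene, and the largest differences of the other lists) were chosen with earlier results of these data known.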

Additional observations from a re-analysis of the deposited data

How the results depend on the processing

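The count of collagen genes lower was 12 of 17 in the main fit and 10 to 12 under the alternatives that kept all 4 arrays. Under these, 0 were higher. Without the filter the count was 10 of 42, beside 123 of all 18193 genes lower. Col8a2 entered there, and Col4a2, Col5a2 and Col16a1 dropped out. With the 75th percentile filter the count was 11 of 14, beside 198 of 4549 genes. In these 2 runs 1.46% and 10.0% of all genes passed in either direction, against 8.01% in the main fit. No paired analysis was possible because each compound has 1 array and the labels number only the controls. The fits with 3 groups could not be tested without a control array, since no residual degrees of freedom remain. Without the filter, 0 collagen genes passed with TC alone and 0 with S2101 alone (limma). Without an intensity trend 4 passed with TC and 2 with S2101. Without the filter the median log2 difference was -0.18 over all 42 collagen genes, -0.31 for fibrillar, 0.0042 for basement membrane and -0.0376 for the other class, where many dim genes enter. With the 75th percentile filter the median of the collagen genes tested was -0.76. Averaging probe sets gave -0.63 for the other class, and the second brightest probe sets gave -0.57 for fibrillar, -0.32 for basement membrane and -0.54 for the other class. Leaving out single arrays gave medians of -0.76 to -0.53 over all tested collagen genes and -0.81 to -0.64 for the other class.

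Of maturation genes 11 passed, and 4 without the filter, 5 without a trend and 6 to 10 with single arrays left out, 6 being without the TC array. The count of basement membrane partners (4) was 1 without the filter, 2 without a trend, 1 with averaged probe sets and 2 to 5 with single arrays left out, 2 being without control 2. The receptor count (1, Itgb1) was 0 without the filter, without a trend, with averaged probe sets and with the second probe set, and 0 to 1 with single arrays left out, 0 being without control 2.

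The change in the Col8a1 to Col8a2 ratio was 0.74, and it was 1.82 with an offset of 10 and -0.26 with an offset of 250, since Col8a2 is dim. The Col1a1 to Col1a2 change was -0.84 with an offset of 250, -0.54 with averaged probe sets and -0.0138 with the second ones. The Col4a1 to Col4a2 change was 0.021 with averaged and 0.27 with second probe sets. The Col5a1 to Col5a2 change was -0.12 with averaged probe sets, and the Col6a1 to Col6a2 change was -0.12 with averaged and -0.24 with second probe sets. Of single genes, Col4a5 stood between -0.11 (without the S2101 array) and 0.24 (without the TC array) when single arrays were left out and Col18a1 at 0.0513 by its second probe set. With averaged probe sets Col5a3 (-0.42, adjusted p = 0.0621) and Col12a1 (-0.33, 0.162) lost their calls, while Col1a2 (-0.34, 0.0192) and Col3a1 (-0.33, 0.0139) passed (limma). Averaging took in every probe set of a gene, dim ones included. For Col5a3 these included one with a mean signal of 6.68 (-0.06), and for Col12a1 ones of 13.1 (-0.24) and 11.7 (-0.02). The second brightest choice instead put another probe set in place of the brightest. The causes of the other shifts were not tested.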
